A study of Mus musculus with 37 samples.

Results

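The transcripts described here are those of 10 genes that are commonly used to sort macrophages or that guide their recruitment, out of 23947 genes in the deposited table. They were picked by symbol, by a rule with no threshold on their values but with earlier results of these cells known: Ptprc, Itgam, Itgax, Emr1, Csf1r, Cd68, Lyz2, Aif1, Ccr2 and Cx3cr1. All 10 symbols were found in the table, where Emr1 is the older symbol of Adgre1. The samples were 37 single cells from 1 labelled group, adipose tissue macrophages of the epididymal white fat of male C57BL/6J mice. The mice ate a purified diet with 60% of its energy from fat, 20% from carbohydrate and 20% from protein. The fat was digested with collagenase D or collagenase IV for 30 min, red blood cells were lysed, and stained cells were sorted and loaded on a C1 platform, a microfluidic chip that holds 1 cell in each chamber. No label ties a cell to an animal, so the group counted as 1 sample and no test was made between cells. Which antigens formed the sort gate, and so which of the 10 genes it used, is unknown here.

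Tissue macrophages are kept alive by signals through the CSF1 receptor, and in obesity their number in fat grows, in part because monocytes that carry the chemokine receptor CCR2 leave the blood. Flow cytometry recognises such cells by proteins on their surface: CD45, encoded by Ptprc, marks all leukocytes, CD11b, encoded by Itgam, marks myeloid cells, and F4/80, encoded by Emr1, marks mouse macrophages. CD11c, encoded by Itgax, is often used to mark the macrophages that gather in obese fat. The present values are transcripts and not surface proteins, and protein was not measured.

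Values are FPKM, fragments per kilobase of transcript and per 1000000 mapped fragments, so the levels of different genes can be set side by side. Detection means a value of at least 1 FPKM in that cell. Of 6 commonly expressed genes, Actb and Eef1a1 were detected in all 37 cells, Rpl3 in 32, Gapdh in 30, Hprt in 17 and Tbp in 1. Lack of detection therefore need not mean that a cell lacked the transcript. Intervals of shares are exact Clopper-Pearson 95% intervals that cover the sampling of cells only. The number of genes detected per cell ran from 1224 to 3204, and the FPKM sum from 225528 to 1841670. The number of fragments per cell is unknown. What 1 fragment was worth in FPKM, estimated from low values, differed 98.4-fold between cells. In 6 cells (2, 7, 15, 17, 24 and 26) it was over 4 times the median, and these are called shallow. Cells 7 and 27 stood apart from their label: they held 7 and 8 of the 8 genes of a fibroblast list, with the proteoglycan gene Dcn at 2582 and 6654 FPKM. Many results that rest on shallow cells or on cells 7 and 27 are also given without them. Of the other lists, none reached 3 genes in any cell, whether for adipocytes, endothelium, neutrophils, eosinophils and mast cells, dendritic cells, or T, B and NK lymphocytes. The 9 genes of a macrophage list outside the 10 members, among them C1qa, Tyrobp and Cd74, were detected 8 or 9 at a time in every cell. This count includes cells 7 and 27, where levels were low. Tyrobp was at 12.1 and 21.3 FPKM there and Cd74 at 37.9 and 57.4 FPKM, against medians of 1637 and 5670 FPKM.

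The 10 genes spanned a wide range of levels. In order of their medians they were Lyz2, Cd68, Emr1, Csf1r, Ptprc, Aif1, Itgam, Ccr2, Cx3cr1 and Itgax. All 10 were detected in at least 1 cell, as were 41.7% of all genes, and 7 were detected in at least 19 cells, which 4.03% of all genes were. Within single cells Lyz2 was above Cd68 in 32 of 37 cells, and the quartiles of these 2 genes did not overlap. The quartiles of every following pair of neighbours in the order overlapped. Cd68 was above Emr1 in 26 cells, Emr1 above Csf1r in 24, Csf1r above Ptprc in 24 and Ptprc above Aif1 in 21. Aif1 and Itgam changed places from cell to cell, with Aif1 higher in 18 cells. Cx3cr1 was above Itgax in 20 cells and equal to it in 14.

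**Figure D1:**
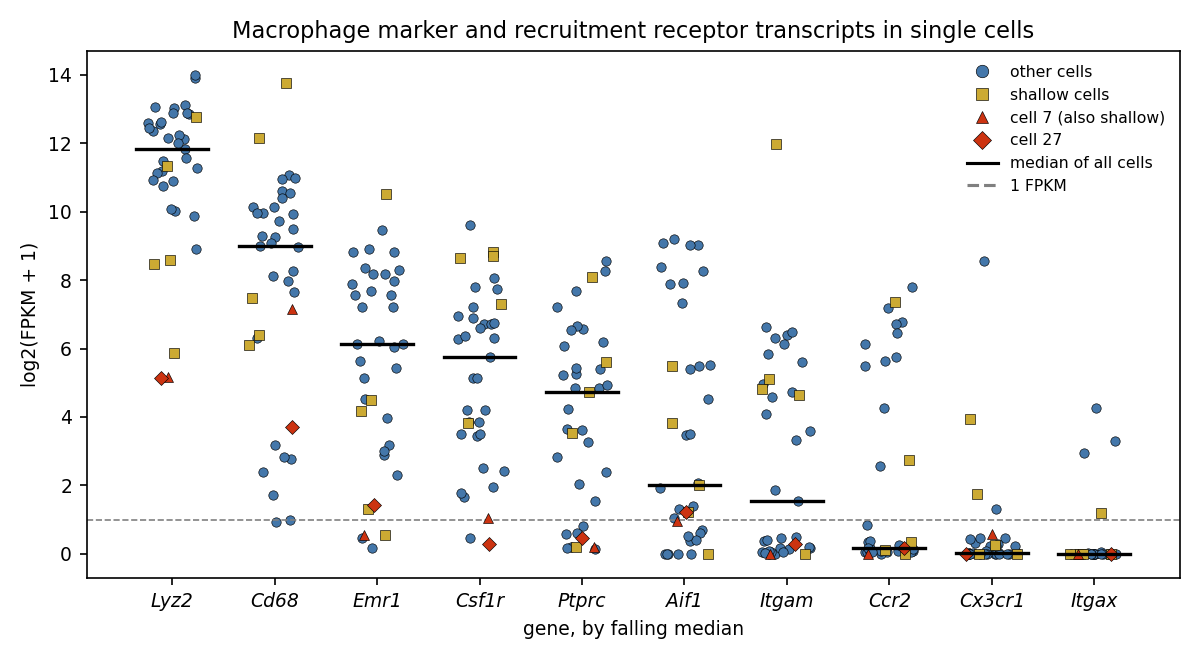
The vertical axis gives log2(FPKM + 1) of the 10 genes in 37 cells, and the horizontal axis the genes by falling median. Black bars are medians, the dashed line is 1 FPKM, squares are shallow cells, and the triangle and diamond are cells 7 and 27. The dashed line stands at 1 because log2(1 + 1) is 1. Lyz2 lies above it in all 37 cells, while Itgax and Cx3cr1 do so in 4 cells each.

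Ptprc encodes CD45, a tyrosine phosphatase that sets the threshold of Src family kinases in leukocytes. Its lowest value was 0.0963 FPKM, its median 25.7 and its highest 378 FPKM, and its quartiles lay at 1.91 and 66.6 FPKM. It was above 0 in all 37 cells and detected in 28. The 9 cells below 1 FPKM reached at most 0.749 FPKM, and the lowest detected value was 1.91 FPKM, so few cells lay near the threshold. Those 9 cells were cells 4, 7, 8, 16, 18, 26, 27, 32 and 34. Emr1 was detected in 6 of them, Csf1r in 7, and Cd68 and Lyz2 in all 9, so cells without detected Ptprc still carried other members.

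Itgam encodes CD11b, the integrin alpha chain that pairs with the beta chain CD18 to form the complement receptor CR3. Its values ran from 0 in cells 0, 4, 7 and 15 to 4035 FPKM in cell 24, with a median of 1.90 FPKM. It reached 1 FPKM in 19 cells (51.4%, 34.4% to 68.1%). The values fell into a low and a high set, since none lay between 0.401 and 1.90 FPKM. Whether the low set reflects missed transcripts was not tested. Cell 24, a shallow cell, held 84.7% of the summed Itgam of all cells, and the next highest value was 97.0 FPKM. Without the 6 shallow cells Itgam was detected in 15 of 31 cells and its median was 0.401 FPKM, so its median depends on which cells are counted.

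Itgax encodes CD11c, the alpha chain of the complement receptor CR4. It was listed at 0 in 31 cells, stood at 0.0247 FPKM in cell 23 and at 0.0284 FPKM in cell 8, and was detected in 4 cells (10.81%, 3.03% to 25.4%). Those were cells 14, 18, 20 and 24, at 18.2, 8.83, 6.73 and 1.31 FPKM. Cell 24 is shallow, and without the shallow cells 3 of 31 cells were left. The best place of Itgax among all genes of a cell was 1065, whereas that of Itgam was 86.

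Itgb2 encodes CD18, the beta chain without which neither integrin reaches the surface. Its median was 8.72 FPKM and its highest value 1164 FPKM, and 30 cells had it at 1 FPKM or more. Of the 19 cells with Itgam, 17 also had Itgb2, against 15.4 from the product of the shares, and over the 37 cells the values of the pair had a Spearman rho of 0.46 (Pearson r of log2 values 0.42). Without cells 7 and 27 rho was 0.44. All 4 cells with Itgax had Itgb2. The other alpha chains of this family on the list, Itgal and Itgad, reached 1 FPKM in no cell, for which the exact interval of the share ends at 9.49%; 3 counts of 37, a limit often used for a count of 0, come to 8.11%. Of the 9 genes of integrin partners, 4 were detected in at least 19 cells. Itgb1, the beta chain of many matrix receptors, had the highest median of the list at 15.3 FPKM, followed by Tln1, which links integrins to actin, at 13.9 FPKM.

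Emr1 encodes F4/80, an adhesion G protein-coupled receptor of mouse macrophages. It was above 0 in all 37 cells, with a lowest value of 0.126 FPKM, a median of 68.5 and a highest of 1470 FPKM in cell 2, which is shallow. The highest value outside the shallow cells was 711 FPKM, in cell 0. Emr1 was detected in 33 cells, and the other 4 were cells 7, 9, 18 and 26, at 0.477 FPKM or less. Quartiles of 8.09 and 248 FPKM show a spread of 30.7-fold within the middle of the cells.

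Csf1r encodes the receptor for the growth factors CSF1 and IL-34, on which macrophage survival depends. Its values ran from 0.222 FPKM in cell 27 to 775 FPKM in cell 19, with a median of 52.4 FPKM. It was above 0 in all cells and detected in 35, and the 2 others were cells 18 and 27. Without the shallow cells its median was 34.3 FPKM and it was detected in 29 of 31 cells.

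The ligands of this receptor were scarce among the sorted cells. Csf1 was detected in 1 cell, cell 7, at 39.9 FPKM, and was at most 0.0465 FPKM in every other cell. Il34 was listed at 0 in all 37 cells. Of the 10 genes in the CSF1 receptor list, 3 were detected in at least 19 cells. Besides Csf1r itself these were Sirpa, an inhibitory receptor that binds CD47, with a median of 30.1 FPKM and detection in 28 cells, and Ptpn6, a phosphatase that dampens receptor signals, in 23 cells at a median of 2.62 FPKM. Csf1r and Sirpa showed little relation over the 37 cells (rho 0.14, r 0.10).

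Cd68 encodes a heavily glycosylated protein of the lysosome membrane. Its lowest value was 0.924 FPKM in cell 0, its median 508 and its highest 13901 FPKM in cell 26. The highest value outside the shallow cells was 2157 FPKM. All but 2 cells had it detected, and those 2, cells 0 and 31, stood at 0.924 and 0.988 FPKM, just under the threshold. The next cells in order, 22, 23, 12, 13, 9 and 27, had 2.29 to 12.2 FPKM, so 8 of 37 cells had Cd68 below 13 FPKM while the rest had 67.3 FPKM or more. Cells 0 and 31 had Emr1 at 711 and 483 FPKM and Ptprc at 93.1 and 92.8 FPKM, so low Cd68 went with high values of other members in these cells. Lamp1, a lysosomal membrane protein of most cell types, had a median of 48.8 FPKM and 32 cells with detection, and its rho with Cd68 was 0.06.

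Lyz2 encodes lysozyme M, which cuts bacterial cell walls, and its promoter drives Cre in many myeloid mouse lines. It was detected in all 37 cells (100%, 90.5% to 100%), with a lowest value of 33.97 FPKM in cell 27, a median of 3615 and a highest of 16374 FPKM in cell 3. The lowest 3 values, in cells 27, 7 and 26, were 33.97, 34.7 and 57.3 FPKM, and every other cell had 355 FPKM or more. Its quartiles lay only 3.67-fold apart, against 12.03-fold for Csf1r and 14.4-fold for Cd68. Lyz2 was among the 10 highest genes of a cell in 16 cells and among the 100 highest in 31.

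Lyz2 has a near-identical neighbour, Lyz1, best known from Paneth cells of the gut, and reads can be shared between the copies. The first 150 bases of their coding sequences are shown because they carry 14 of the 22 differences that separate the copies over 444 coding bases without the stop codon, and capitals mark the differing bases. Both were taken from GENCODE release M21 transcripts (build GRCm38), and the deposited values were made on the older build mm9.
Lyz1: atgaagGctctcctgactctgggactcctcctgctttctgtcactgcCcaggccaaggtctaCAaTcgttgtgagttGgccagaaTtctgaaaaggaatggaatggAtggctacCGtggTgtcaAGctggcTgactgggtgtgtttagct
Lyz2: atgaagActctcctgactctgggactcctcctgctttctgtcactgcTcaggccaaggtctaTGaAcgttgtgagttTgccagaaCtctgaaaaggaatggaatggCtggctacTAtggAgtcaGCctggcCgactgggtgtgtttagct

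The coding sequences were 95.05% identical, and 15.4% of the stretches of 50 bases in the Lyz2 transcript were also in the Lyz1 transcript. Lyz1 was listed at 0 in 4 cells and detected in 12, with a median of 0.538 FPKM and a highest value of 15.3 FPKM in cell 25. No cell had more Lyz1 than Lyz2. Lyz1 stood at a median of 0.0145% of Lyz2 and was under 1% of it in 35 cells, and the 2 others, cells 26 and 27, had 4.46% and 1.44%. Over the 37 cells the 2 genes had rho 0.59 and r 0.35. By number, rho was 0.87 in cells 0 to 19 and 0.22 in cells 20 to 36. How much of the Lyz1 value was Lyz2 reads was not tested.

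The 250 bases before the start of each gene are shown because these copies lie close together on 1 chromosome and yet differ in level. Capitals mark the only match to AGGAAGT or its complement ACTTCCT, a core that factors of the ETS family such as PU.1 bind. The sequences are those of RefSeq (build GRCm38.p6, minus strand), at chr10:117292869-117293118 for Lyz1 and chr10:117282273-117282522 for Lyz2.
Lyz1: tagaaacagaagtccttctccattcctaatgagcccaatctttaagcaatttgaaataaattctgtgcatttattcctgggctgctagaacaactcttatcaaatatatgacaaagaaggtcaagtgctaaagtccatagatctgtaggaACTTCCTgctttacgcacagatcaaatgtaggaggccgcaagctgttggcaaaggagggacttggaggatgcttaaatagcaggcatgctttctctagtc
Lyz2: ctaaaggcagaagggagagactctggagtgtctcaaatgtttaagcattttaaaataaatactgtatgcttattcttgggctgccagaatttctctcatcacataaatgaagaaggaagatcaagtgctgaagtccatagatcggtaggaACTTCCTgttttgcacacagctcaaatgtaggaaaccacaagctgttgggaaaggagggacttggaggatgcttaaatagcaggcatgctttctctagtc

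The 2 windows were 79.4% identical over 252 aligned positions, and 92.0% identical over the 100 bases next to the start. The match began 100 bases before the start in both. For 8 of the 10 members 9 windows were found, of which 3 held the core in the 250 bases before the start, both windows of Ptprc and that of Lyz2. Of 32851 windows over all genes, searched in the same 250 bases, 7.69% held it. These matches describe letters in a window and not binding. Spi1, which encodes PU.1, had a median of 1.40 FPKM with detection in 22 cells, and 5 of 8 listed myeloid transcription factors were detected in at least 19 cells. Cebpb and Maf, both factors of monocyte and macrophage development, had medians of 93.1 and 48.1 FPKM. In cells 7 and 27 Cebpb was at 70.1 and 13.1 FPKM and Maf at 33.8 and 168 FPKM.

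**Figure D2:**
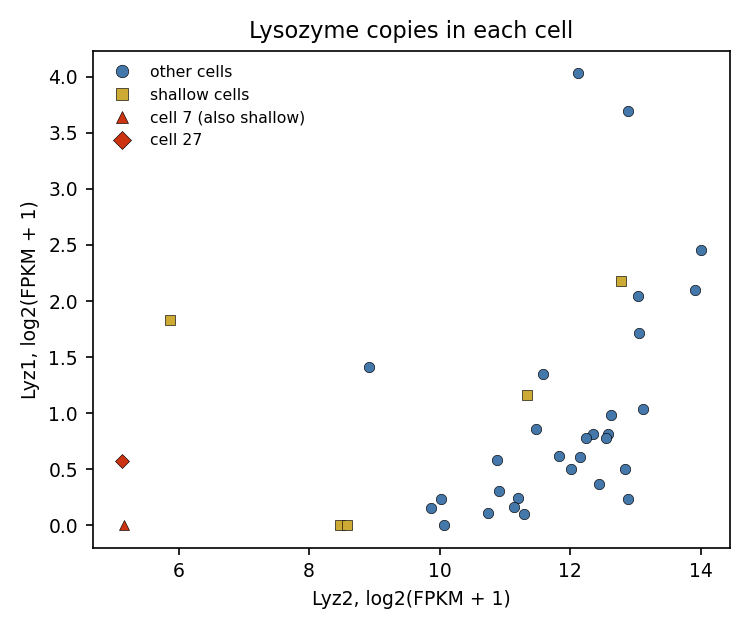
Lyz2 on the horizontal and Lyz1 on the vertical axis, each as log2(FPKM + 1), with 1 point for each of 37 cells. Squares are shallow cells, and the triangle and diamond are cells 7 and 27. The axes differ in scale: Lyz1 did not exceed 15.3 FPKM, and Lyz2 ran up to 16374 FPKM.

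Aif1 encodes IBA1, a calcium-binding protein of actin ruffles that is used to stain macrophages and microglia. It was listed at 0 in 6 cells and detected in 25 (67.6%, 50.2% to 82.0%), and had a median of 3.07 FPKM and a highest value of 584 FPKM in cell 0. Of the detected cells, 8 had less than 10 FPKM and 9 had 100 FPKM or more. Its quartiles lay 84.4-fold apart, and with detection at 5 FPKM it was found in 17 cells.

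Ccr2 encodes the receptor for CCL2 and related chemokines, which draws monocytes out of the bone marrow and into tissue. It was listed at 0 in 3 cells, and its median was 0.136 FPKM and its highest value 220 FPKM in cell 36. The 13 cells (35.1%, 20.2% to 52.5%) that had it at 1 FPKM or more stood clear of the rest in value, since none lay between 0.812 and 4.99 FPKM. Whether Ccr2 was missed in some of the other cells was not tested. In those 13 cells the median was 68.6 FPKM. They were cells 0, 2, 3, 9, 12, 18, 21, 23, 24, 25, 32, 35 and 36. Without the shallow cells 11 of 31 cells had Ccr2.

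The Ccr2 cells carried other members to a varying degree. Of the 13, 11 had Ptprc (9.84 from the product of the shares), 11 had Emr1 (11.6), 12 had Csf1r (12.3), 7 had Itgam (6.68) and 9 had Aif1 (8.78). Cell 18 had Ccr2 at 105 FPKM with Ptprc, Emr1 and Csf1r all under 1 FPKM, although Cd68 was at 1127 and Lyz2 at 2259 FPKM. In the same cell 2 dendritic cell genes were detected and the summed level of that list was the highest of all cells, at 961 FPKM, with Batf3 at 843 FPKM. Batf3 was not particular to cell 18: it was detected in 16 cells, with a second highest value of 415 FPKM. The other gene was Cd209a, which was detected in 4 cells. Cell 18 was also 1 of the 4 cells with Itgax, at 8.83 FPKM. Cell 33 also had 2 genes of the list. The defining dendritic genes Flt3, Xcr1 and Clec9a were listed at 0 in all cells. Their part in the Ccr2 count was not tested.

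Cx3cr1 encodes the receptor for fractalkine, typical of patrolling monocytes and of some resident macrophages. It was listed at 0 in 15 cells, above 0 but under 1 FPKM in 18, and detected in 4 (10.81%, 3.03% to 25.4%). These were cells 0, 2, 24 and 21, at 372, 14.5, 2.33 and 1.495 FPKM. Cell 0 held 94.6% of the summed Cx3cr1 of all cells. The low values fell on steps: in 9 cells the value lay within 15% of the lowest after division by what 1 fragment was worth, and in 3 more near 2 such units. In a cell of median depth 1 FPKM of Cx3cr1 thus stood for about 24.4 fragments. By this estimate cell 0 had 18613 fragments, cell 21 had 142, cell 2 had 20.2 and cell 24 had 2.24. Fragments of amplified cDNA are not molecules, so these numbers say how many fragments support a value and not how many transcripts a cell held. The count of 4 cells thus includes 1 that rests on about 2 fragments, and without the shallow cells 2 of 31 cells were left.

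All 4 cells with Cx3cr1 also had Ccr2, against 1.41 from the product of the shares, and all 4 had Ptprc, Emr1, Csf1r, Aif1 and Lyz2. Since only 4 cells are involved, and 2 of them are shallow, this is a description of those cells. Over all 37 cells Ccr2 and Cx3cr1 had rho 0.02 and r 0.27.

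CCL2, CCL7 and CCL12 are ligands of CCR2. Ccl2 was above 0 in all cells and detected in 25, at a median of 1.39 FPKM. Ccl7 and Ccl12 were detected in 17 and 16 cells, both with medians under 1 FPKM. Their highest values were far above these medians: 10159 FPKM of Ccl2 in cell 7, which held fibroblast genes, and 4168 FPKM of Ccl7 and 13135 FPKM of Ccl12 in cell 8. Ccl2 was detected in 7 of the 13 Ccr2 cells (8.78 from the product), and rho of the pair was -0.16. The CX3CR1 ligand Cx3cl1 was listed at 0 in every cell.

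Receptors for complement fragments were detected in more cells than any chemokine receptor of the lists. C3ar1 had a median of 74.8 FPKM with detection in 35 cells, and C5ar1 one of 103 FPKM with detection in 33, both above the median of Csf1r. They were the 2 of 12 other attractant receptors detected in at least 19 cells. Cxcr4, which holds leukocytes in tissues rich in CXCL12, came next with a median of 0.944 FPKM in 18 detected cells. Ccr7, Ccr9, Cxcr2, Cxcr3 and Fpr1 were listed at 0 in all cells.

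**Figure D3:**
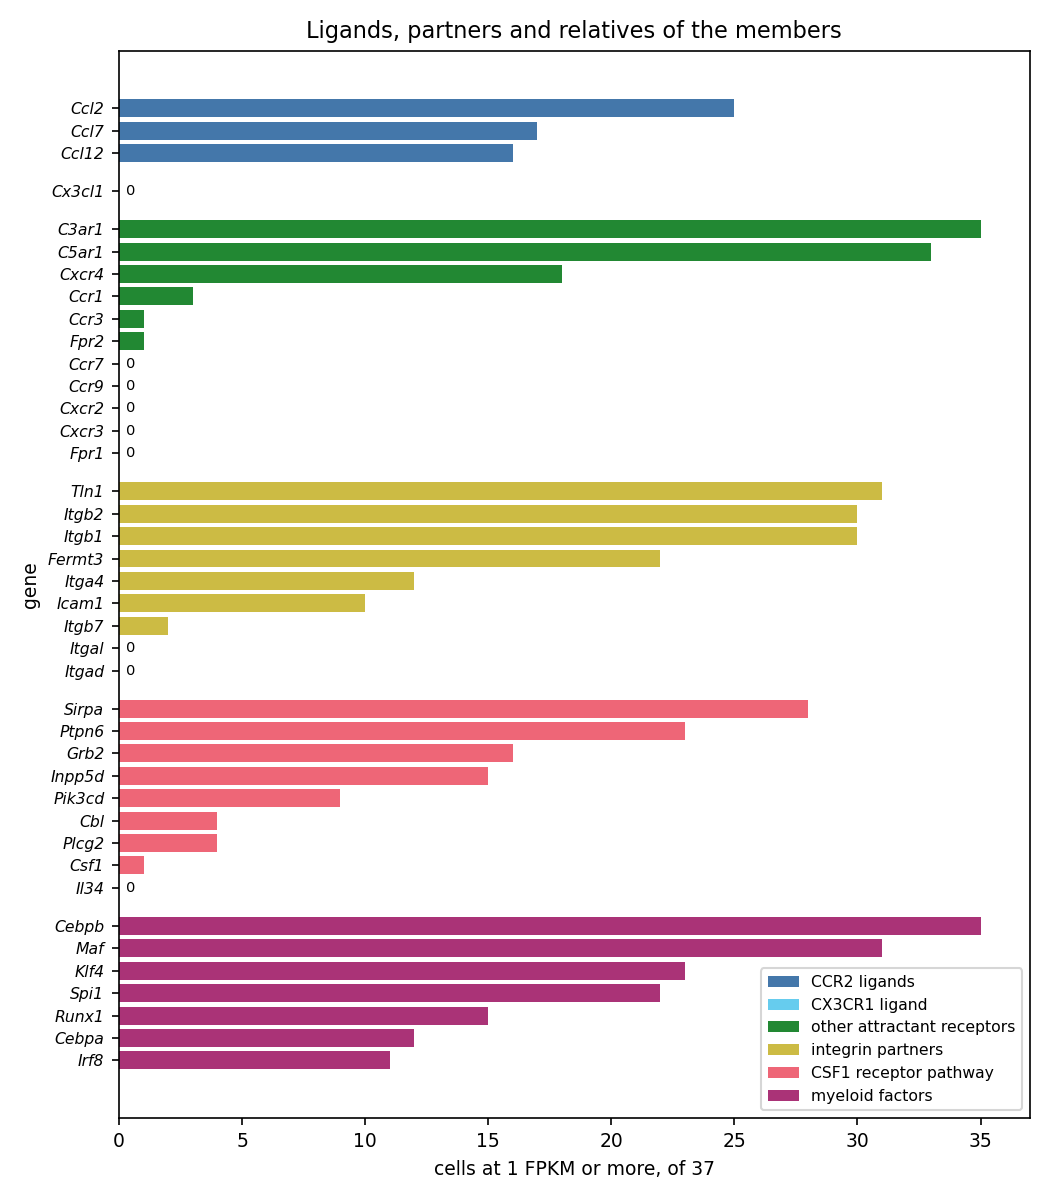
Number of cells at 1 FPKM or more, of 37, on the horizontal axis for the ligands, partners and relatives of the 10 genes that are reported here, on the vertical axis, with bar colours for the lists. C3ar1 and Cebpb reach 35 cells, and genes marked 0 reached 1 FPKM in none.

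Of 12 genes of other antigens used to sort macrophages, 3 were detected in at least 19 cells: Cd14, a co-receptor for endotoxin, in 37 cells at a median of 419 FPKM, Mrc1, which encodes CD206, in 34 at 76.0 FPKM, and Cd9 in 28 at 17.8 FPKM. In cells 7 and 27 Cd9 was at 847 and 593 FPKM, above its upper quartile of 243 FPKM. Cd14 and Mrc1 were below their medians there. Of 12 genes of leukocyte membranes and cytoskeleton, 7 were detected in at least 19 cells, Ptprc among them. The highest medians in that list were those of Laptm5, a lysosomal protein of leukocytes, at 279 FPKM, Cd52, a small surface glycoprotein, at 67.9 FPKM, and the tetraspanin Cd53 at 55.9 FPKM. Cd53 was detected in 27 of the 28 cells with Ptprc, and rho was 0.34. Over the lists of ligands, partners and relatives together, 25 of 68 genes besides the members were detected in at least 19 cells.

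Taken by cell, the number of members detected ran from 3 to 10 with a median of 6. Cell 24, the cell in which 1 fragment was worth most, was the only one with all 10, and cell 7 had the fewest with 3. Over the 37 cells this number showed little relation to the number of genes detected (rho 0.08, r -0.03). Cells 7 and 27 had the most genes detected, 3204 and 3054, but only 3 and 4 members. The relation without these cells was not computed. Ptprc, Emr1, Csf1r, Cd68 and Lyz2 were detected together in 25 cells (67.6%, 50.2% to 82.0%).

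The antigens of a usual macrophage gate are CD45, CD11b and F4/80. Their transcripts overlapped in many cells when counted by detection, but Emr1 was detected in 33 of 37 cells and Ptprc in 28. Ptprc, Itgam and Emr1 were all detected in 18 cells (48.6%, 31.9% to 65.6%). In 9 cells Ptprc and Emr1 were detected without Itgam, and in 6 cells Emr1 alone. Of the 19 cells with Itgam all but cell 26 had both of the others. The product of the shares gives 14.4 cells for Ptprc with Itgam and 16.9 for Itgam with Emr1, against 18 for each pair. For Ptprc with Emr1 it gives 25.0, against 27. In level, rho of Itgam was 0.04 with Ptprc and 0.09 with Emr1. Ptprc was detected without the other 2 in cell 9, and none of the 3 was detected in cells 7 and 18. At 0.1 FPKM the share of cells with all 3 rose to 73.0%, so the count depends on the threshold.

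**Figure D4:**
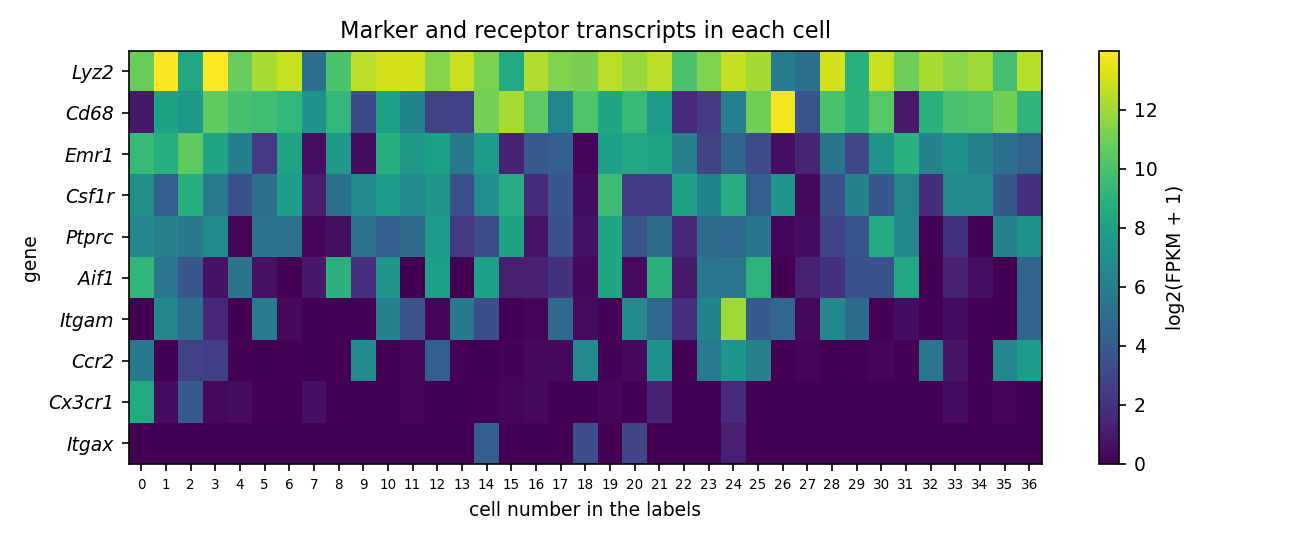
The 10 genes on the vertical axis in each cell, by its number in the labels, on the horizontal axis, with colour for log2(FPKM + 1). Lyz2 at the top is bright in nearly every column and dim in cells 7, 26 and 27, and those of Cx3cr1 and Itgax at the bottom are mostly dark.

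Cells 7 and 27 show what level the members reached beside fibroblast genes. Ptprc was at 0.150 and 0.368 FPKM in them, which is 0.540% and 1.33% of the median of the other 35 cells, and 31 of those 35 cells lay above both. Lyz2 was at 0.839% and 0.820% of the median of the others, and all 35 others lay above both. Csf1r was at 1.07 and 0.222 FPKM, with 34 of the others above, and Emr1 at 0.477 and 1.697 FPKM, with 31 above. Cd68 was at 12.2 FPKM in cell 27, 2.25% of the median of the others, and at 141 FPKM in the shallow cell 7, 26.1% of that median, with 25 of the 35 above both. Aif1, at 0.964 and 1.35 FPKM, lay within the range of the others, 22 of which were above both. Emr1, Csf1r, Cd68, Lyz2 and Aif1 each reached 1 FPKM in at least 1 of these 2 cells, so for them detection at that level does not set a cell apart from cells with fibroblast genes.

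Cell 26 was unlike these. Cd68 stood there at 13901 FPKM, and Csf1r and Itgam at 158 and 23.9 FPKM, while Ptprc was at 0.157, Emr1 at 0.452 and Lyz2 at 57.3 FPKM. It is a shallow cell with 1 fibroblast gene, and the granule gene Ngp was at 501 FPKM in it and at 0 in all other cells. Ngp was the only gene of the neutrophil list detected there, against 8 genes of the macrophage list. Of the macrophage list, C1qc and Tyrobp had their highest values in cell 26, at 11397 and 6987 FPKM. The other genes of that list were highest in other cells. Cell 26 was the only cell with Itgam but neither Ptprc nor Emr1.

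Members varied from cell to cell largely apart from one another. Over the 45 pairs rho had a median of 0.05 and ranged from -0.27 to 0.37. In 27 pairs it was above 0, in 7 it was 0.3 or above, and in none was it -0.3 or below. The members detected in at least 10 cells were also compared with 2387 genes. Their median rho with these genes ran from -0.06 for Csf1r to 0.06 for Cd68. The median of 0.05 for the pairs of members lay within this range. The 45 pairs include Itgax and Cx3cr1, which were not compared with these genes. The share of pairs with these genes at rho 0.3 or above was not computed, so the count of 7 has no background. Cells share their library preparation and differ in depth, so these values describe the 37 cells and carry no p-value. The highest of the 45 pairs were Itgam with Lyz2 (rho 0.37, r 0.24) and Ptprc with Aif1 (rho 0.37, r 0.36). Next came Ptprc with Csf1r (rho 0.36, r 0.41) and Ptprc with Emr1 (rho 0.35, r 0.33). After the 2 cells with Ptprc most distant from its median were left out, r was 0.30 for Ptprc with Aif1.

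The surface antigens Ptprc, Emr1 and Csf1r had rho of 0.31 to 0.36 with each other. By number, however, Ptprc with Csf1r had rho 0.74 in cells 0 to 19 and -0.14 in cells 20 to 36. Emr1 with Csf1r had 0.56 and -0.13, whereas Ptprc with Emr1 kept its sign at 0.44 and 0.22. This division of cells is not in the labels, and the cause was not tested. Without cells 7 and 27 Ptprc with Csf1r stood at 0.28, Emr1 with Csf1r at 0.22 and Ptprc with Emr1 at 0.28. The lowest rho of Cd68 were -0.27 with Aif1 and -0.21 with Emr1, both -0.31 without cells 7 and 27. Its other pairs ran from -0.16 with Itgam to 0.08 with Itgax, with -0.07 for Ptprc and -0.11 for Csf1r. After the 2 cells with Cd68 most distant from its median were left out, rho with Aif1 was -0.15. The integrins Itgam and Itgax had rho 0.24 over all cells, -0.04 in cells 0 to 19 and 0.63 in cells 20 to 36, and 0.04 after the 2 cells with Itgam most distant from its median were left out. Of the 4 cells with Itgax 3 also had Itgam, against 2.05 from the product of the shares.

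**Figure D5:**
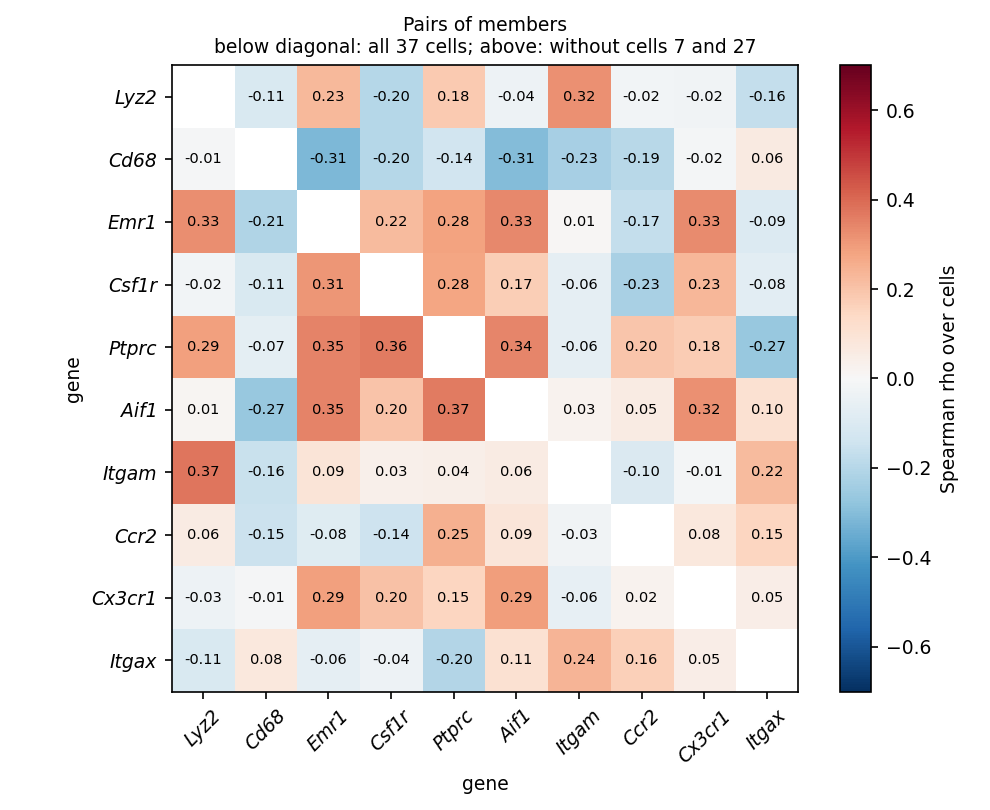
Spearman rho over cells for each pair of the 10 genes, with all 37 cells below the diagonal and without cells 7 and 27 above it. Red is positive and blue negative, and no pair lies above 0.37 below the diagonal.

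Each of the 8 members detected in at least 10 cells was compared with 2387 genes. The number at rho 0.5 or above was 14 for Lyz2 (0.587%), 12 for Cd68 (0.503%), 8 for Emr1 (0.335%), 7 for Ccr2 (0.293%), 4 each for Ptprc, Itgam and Aif1 (0.168%) and 1 for Csf1r (0.0419%). No member was among them.

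The gene most like Cd68 was Arl6ip1, of the endoplasmic reticulum membrane, at rho 0.69 and r 0.65, and rho was 0.75 in cells 0 to 19 and 0.61 in cells 20 to 36. The subunit Ndufb8 of respiratory complex I (0.57) and Twf1, which binds actin monomers (0.56), came next. For Itgam it was Nfam1, a receptor with an ITAM motif, at rho 0.62 and r 0.36, then Use1 (0.53) and Baz1b (0.52). Lyz2 was followed by Vkorc1, of vitamin K recycling, at rho 0.60 and r 0.42, by Lyz1 (0.59), and by the chemokine Ccl6 at rho 0.58 and r 0.65.

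Emr1 was followed by Fam168a (0.58), Rpgrip1 (0.57) and 1110058L19Rik (0.55), and with Mrc1 it had rho 0.54 and r 0.52. Among the genes most like Aif1 were the activation marker Cd83 (0.55) and the Fc receptor relative Fcrls (0.55). Ptprc was followed by Pid1 (0.57), Ufc1 (0.53) and BC005537 (0.51). The 3 genes most like Csf1r were all abundant macrophage transcripts, the complement gene C1qa (0.51), Apoe (0.48) and Mrc1 (0.47). Without cells 7 and 27 these values of rho were lower, at 0.42 for C1qa, 0.39 for Apoe and 0.40 for Mrc1. The 3 genes most like Ccr2 were the ribonucleases Ear2 (rho 0.56, r 0.69) and Ear12 (0.55), which can share reads, and Sp110 (0.54). Ear2 had rho 0.20 with Ccr2 in cells 0 to 19 and 0.69 in cells 20 to 36. It was detected in 14 cells, 9 of them with Ccr2.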

How the data were processed

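The authors deposited 1 table of FPKM values for 23947 genes in 37 cells. STAR, Cuffnorm and the mouse build mm9 are listed per the submitters' processing notes, and their versions, parameters and gene annotation were not given in the sources used here. FPKM are not counts, so no count test was used, and an exact 0 can be a failed estimate. Columns were matched to cells by title. The members and lists were chosen with earlier results of these data known, as were the divisions of cells by number, which are not in the labels. Named were all members, the 3 highest medians of each list, ligands at 0 and the 3 genes with the highest rho per member; other list genes were named after their values were seen. A few genes that the rule or lists name are not reported here, though counts over lists include them. Log values are log2(FPKM + 1). What 1 fragment was worth was the modal ratio of values between 0.005 and 1 FPKM over 666 pairs of cells, of which 489 entered the least-squares solution; this step and the ranking by rho were tested on simulated data. Of the marker genes, Ly6g, Trac and Siglecf were not matched by symbol. Doublets were not called, because callers work on counts. Python 3.11.15, numpy 2.4.6, scipy 1.17.1, pandas 2.3.3 and Biopython 1.88 were used. Alternatives were the detection threshold, rescaling to 1000000 per cell, leaving out cells, a pseudocount of 0.1 and removal of the number of genes detected.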

Additional observations from a re-analysis of the deposited data

How the results depend on the processing

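Medians in cells 0 to 19 and in cells 20 to 36 were 0.312 and 16.1 FPKM for Itgam, 189 and 42.2 for Emr1, 78.5 and 17.5 for Csf1r, 32.3 and 11.5 for Ptprc, 292 and 541 for Cd68, and 0.0738 and 0.291 for Ccr2; the cause was not tested. Rescaled to 1000000 per cell, which raises the values of most cells, the medians of Lyz2 and Cd68 were 9860 and 1558. At 0.1 FPKM the median number of members per cell was 8 and the share of cells with Ptprc, Itgam and Emr1 was 73.0%. Of the 24 genes most like a member, 10 stayed among the 3 highest without cells 7 and 27. Only 10 of the 24 were detected in at least 19 cells, so with that limit the number could not exceed 10, and it was 10. In cells 20 to 36 rho of Ptprc with Csf1r was -0.14 and of Emr1 with Csf1r -0.13; the cause was not tested. The median rho of the 45 pairs stayed between -0.02 and 0.10. No paired analysis was possible because the labels give 1 group. Fragments per cell are unknown, which limits what a value under 1 FPKM can show.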
